A study of Mus musculus with 16 samples.

Results

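The genes of muscle wasting were followed in RNA from mouse quadriceps after a high-fat diet and after a single run to exhaustion. They were the ubiquitin ligases Trim63 (MuRF1), Fbxo32 (atrogin-1), Fbxo30 (MUSA1) and Fbxo21 (SMART), the transcription factors Foxo1, Foxo3 and Foxo4, the secreted growth inhibitor Mstn (myostatin) and the caveola protein Murc (also called Cavin4). They were picked by symbol, 9 of the 23970 symbols in the expression table, and all 9 were among the 11256 genes that passed the filter on low values. The 16 libraries came from 16 male C57BL/6NTac mice aged 16 weeks, 4 in each of 4 groups. For 10 weeks the CON mice had eaten a diet with 10% of its kcal as fat and the HFD mice one with 60%. The CON-pre and HFD-pre mice did not run. The CON-post and HFD-post mice were sampled 3 h after a treadmill test whose speed rose until exhaustion. According to the study's methods, the mice that did not run were accustomed to the treadmill and fasted for the same period as those that ran, which had water but no food between the run and sampling. The methods do not spell out whether that period takes in the 3 h after the run, and if it does not, exercise and a longer fast cannot be told apart in any post against pre value. Each group holds different mice, so no change was measured within 1 animal. In RNA from whole muscle, a lower level from fewer cells of a type and from less RNA per cell cannot be told apart.

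Muscle loses mass when protein breakdown outpaces synthesis, and much of that breakdown runs through the ubiquitin-proteasome system. A ubiquitin ligase chooses the protein to be tagged: Trim63 is a RING-finger ligase that acts on sarcomere proteins, and Fbxo32, Fbxo30 and Fbxo21 are the F-box subunits that give SCF ligases their targets. FoxO factors switch on these ligases and autophagy genes when insulin and Akt signalling is low, because Akt phosphorylation keeps FoxO out of the nucleus. Myostatin is a ligand of the TGF-beta family, made by muscle fibres, that limits fibre growth through activin receptors and Smad2 and Smad3. Murc is restricted to muscle, belongs to the cavin coat of caveolae and is not a ligase.

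The 250 bases upstream of the RefSeq start were searched for the FoxO core GTAAACA, the glucocorticoid arm AGAACA and the TATA box TATAAA, each on both strands. The glucocorticoid arm is a single arm of the paired element that the glucocorticoid receptor binds. RefSeq held a window for 7 of the 9 genes, all but Fbxo32 and Foxo4, and 4 are shown on the sense strand, 5′ to 3′, with matches in capitals. They are the ligase with the largest exercise response, a FoxO factor, and the 2 genes of muscle fibres with the smallest averaged exercise estimates. The windows are chr4:134314870-134315119 for Trim63, chr3:52268087-52268336 for Foxo1, chr1:53061390-53061639 for Mstn and chr4:48663264-48663513 for Murc (GRCm38.p6, plus strand).
Trim63: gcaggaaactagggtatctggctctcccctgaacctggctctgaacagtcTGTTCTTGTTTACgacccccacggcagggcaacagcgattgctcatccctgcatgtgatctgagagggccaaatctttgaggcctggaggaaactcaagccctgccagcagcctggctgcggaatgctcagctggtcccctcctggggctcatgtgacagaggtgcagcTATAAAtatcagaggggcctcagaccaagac
Foxo1: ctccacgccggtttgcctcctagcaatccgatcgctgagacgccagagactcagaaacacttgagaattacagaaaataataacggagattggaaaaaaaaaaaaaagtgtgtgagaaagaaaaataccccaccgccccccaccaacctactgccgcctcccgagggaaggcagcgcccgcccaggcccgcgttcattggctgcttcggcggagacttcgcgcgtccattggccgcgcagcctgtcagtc
Mstn: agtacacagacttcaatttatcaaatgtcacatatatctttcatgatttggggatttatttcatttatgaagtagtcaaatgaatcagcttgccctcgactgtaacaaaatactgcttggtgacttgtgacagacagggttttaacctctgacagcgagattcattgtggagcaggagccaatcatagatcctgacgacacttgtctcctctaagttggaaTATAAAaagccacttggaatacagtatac
Murc: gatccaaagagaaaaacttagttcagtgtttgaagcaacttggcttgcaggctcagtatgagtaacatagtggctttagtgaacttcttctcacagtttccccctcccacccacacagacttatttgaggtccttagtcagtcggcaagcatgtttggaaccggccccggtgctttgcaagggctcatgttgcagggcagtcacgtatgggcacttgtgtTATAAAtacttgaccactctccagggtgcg
Counted back from the start, the Trim63 window held TGTTTAC, the FoxO core read from the other strand, at -194 to -188. TGTTCT, a glucocorticoid arm read from the other strand, lay at -200 to -195, with no base between these matches. Before TGTTCT, across the letters gtc, lay tgaaca, which differs from the arm AGAACA in its first letter only. The search took exact matches, so this imperfect pair of arms was not marked or counted, and binding to it was not tested. Its TATAAA lay at -31 to -26. The Mstn window held TATAAA at -29 to -24 and the Murc window at -30 to -25, and neither held the other motifs. The windows of Foxo1, Foxo3 and Fbxo21 held none of the 3 motifs. Neither did the window of Fbxo30 (chr10:11281337-11281586, plus strand), but it precedes a start inside the gene, which RefSeq begins at 11281330, so the bases before that gene start were not searched. Of all 32851 windows of this length, 3.17% held the FoxO core, 16.1% the glucocorticoid arm, 12.4% the TATA box and 0.691% both of the first 2. The abutting arrangement, counted after it had been seen in Trim63, was in 4 windows (0.0122%). A match is a match of letters and not a measured binding site. In the same build the genes with an exercise call lie at chr4:134315120-134329629 (Trim63), chr15:58175879-58214892 (Fbxo32), chr3:52268337-52350109 (Foxo1) and chr10:42181845-42276695 (Foxo3), and Mstn lies at chr1:53061640-53068079.

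Every library carried the RNA of fast muscle: the summed level of 10 fibre genes such as Acta1 and Ckm lay between 66756 and 93037 FPKM, and none of the 10 was at 0 in any library. FPKM are fragments per kilobase of a transcript in a library of set size, which puts genes and libraries on a common scale. They do not correct for the mix of RNA in a library. The 10 highest symbols held 29.2 to 36.5% of a library's FPKM, and total FPKM ran from 283575 to 329282. FPKM were not rescaled between libraries for the main values. The depth of the libraries, judged from their lowest values relative to CON-pre replicate 1, ranged from 0.702 to 1.125. The number of mice per group, 4, limits the precision. Log2 fold changes below are differences of mean log2(FPKM + 0.5), given with their standard error (SE), and a change was called at an adjusted p under 0.05 in limma.

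The 9 genes spanned a wide range of levels. Trim63 was the most abundant, with a mean of 208 FPKM over the 16 libraries, which ranked it at 140 of the genes tested. Fbxo32 followed at 73.1 FPKM and Murc at 65.3 FPKM, then Foxo4 at 40.9, Mstn at 22.3 and Foxo1 at 7.30 FPKM. Foxo3 (3.57 FPKM), Fbxo21 (3.38 FPKM) and Fbxo30 (2.79 FPKM) were the lowest. Trim63 was above Fbxo32 in 16 of 16 libraries, and the steps from Murc to Foxo4, Foxo4 to Mstn, Mstn to Foxo1 and Foxo1 to Foxo3 also held in all 16. Fbxo32 was above Murc in only 9 of 16 libraries, Foxo3 above Fbxo21 in 9 and Fbxo21 above Fbxo30 in 12, so the members of these pairs did not separate.

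**Figure D1:**
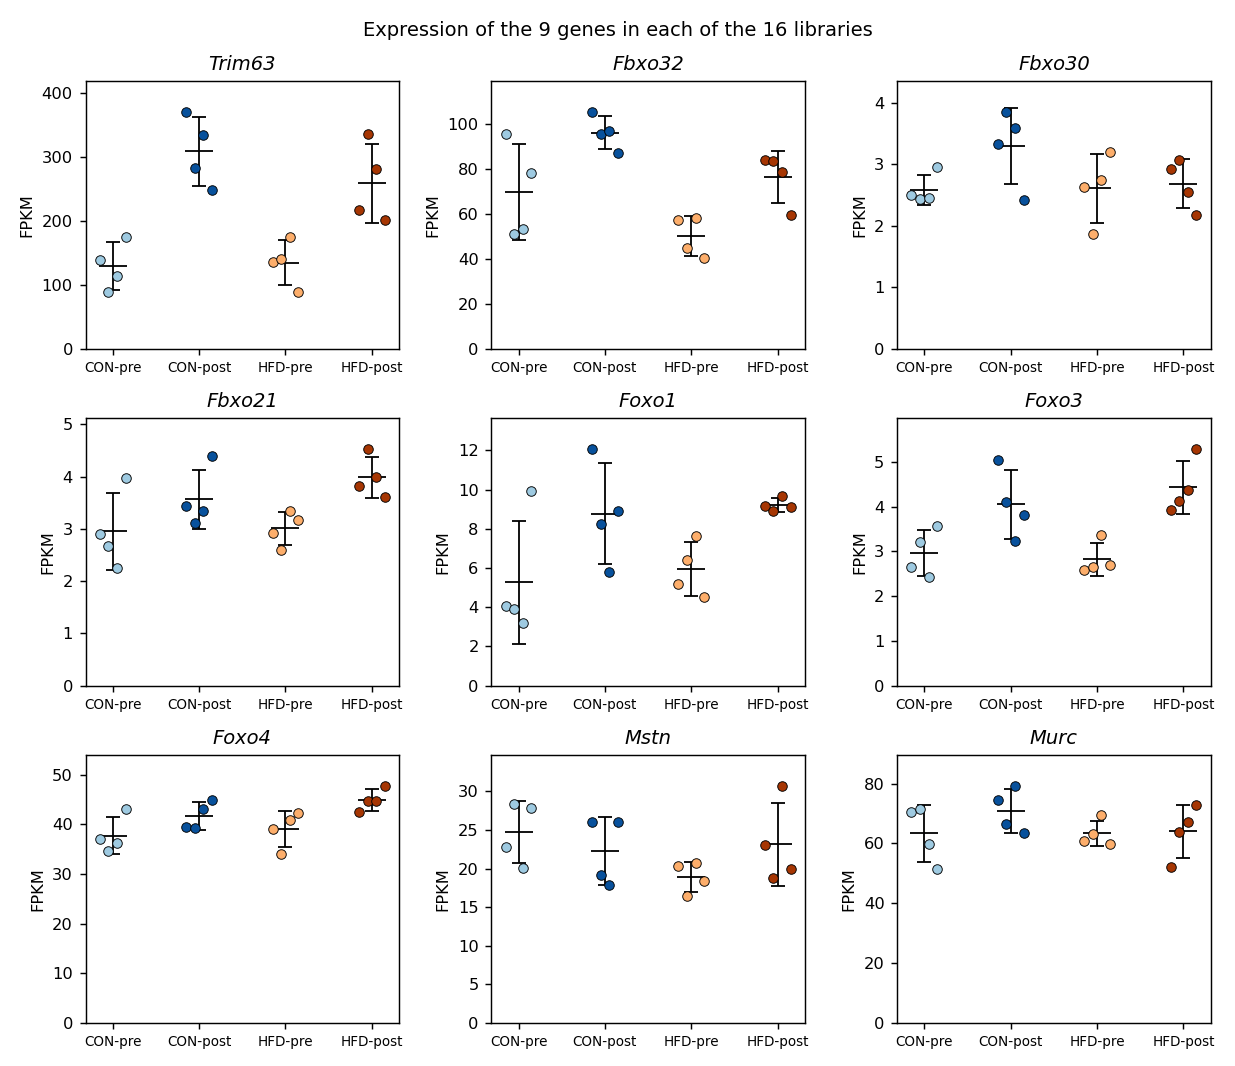
FPKM of each of the 9 genes (vertical axes from 0, a separate scale for each gene) in the 4 groups of 4 libraries. Points are libraries, and the bar and whiskers are the group mean and SD. For Trim63 all post libraries lie above all pre libraries of the same diet, and a single CON-pre library of Foxo1, at 9.93 FPKM, stands well above the other 3.

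At 3 h after the run, Trim63 showed the largest change, Fbxo32, Foxo3 and Foxo1 had risen by smaller steps, and Mstn and Murc had not changed beyond the spread between mice. Averaged over the diets, 4 of the 9 genes were called higher and none lower. Over all genes tested the same comparison called 2.95% higher and 0.915% lower. Trim63 rose 2.17-fold (log2 1.12, SE 0.16, adjusted p = 0.00059), Fbxo32 1.47-fold (log2 0.56, SE 0.13, adjusted p = 0.0202), Foxo3 1.39-fold (log2 0.48, SE 0.09, adjusted p = 0.00895) and Foxo1 1.62-fold (log2 0.70, SE 0.19, adjusted p = 0.0487). At an unadjusted p under 0.05 the count was 6 of 9, with Fbxo21 and Foxo4 added, against 11.7% of all genes. The Foxo1 call was the least stable, since it was lost without any one of 13 of the 16 libraries (adjusted p up to 0.101). It was kept without HFD-pre replicate 3 or CON-post replicate 3, and its adjusted p was 0.00114 without CON-pre replicate 4.

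In CON mice, Trim63 measured 139, 88.0, 114 and 175 FPKM before exercise and 371, 282, 334 and 248 FPKM after it. In HFD mice it measured 135, 140, 174 and 88.6 FPKM before exercise and 217, 336, 281 and 201 FPKM after it. The lowest post library of either diet thus lay above the highest pre library of that diet. The group means were 129 ± 37.2 (CON-pre), 309 ± 54.3 (CON-post), 134 ± 35.2 (HFD-pre) and 259 ± 62.0 FPKM (HFD-post; SD, n = 4 each). Trim63 was the only gene of the 9 called within CON, where 0.968% of all genes were called higher (2.44-fold, log2 1.28, SE 0.22, 95% interval 0.81 to 1.76, adjusted p = 0.00637). It was also the only gene of the 9 whose CON-post libraries all exceeded the CON-pre libraries, as was so for 3.29% of all genes. Within HFD its rise was 1.93-fold (log2 0.95, SE 0.22, 95% interval 0.48 to 1.43) with an adjusted p of 0.0877, which missed the threshold.

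Fbxo32 in CON mice measured 95.7, 51.1, 53.3 and 78.1 FPKM before and 105, 95.5, 96.8 and 87.0 FPKM after exercise. The corresponding values in HFD mice were 57.4, 44.6, 58.1 and 40.3 FPKM before and 84.0, 83.4, 78.7 and 59.6 FPKM after. The HFD groups did not overlap, whereas in CON the highest pre library lay above the lowest post library. Neither diet alone gave a call, with a log2 difference of 0.51 in CON (95% interval 0.13 to 0.89, adjusted p = 0.244) and 0.61 in HFD (95% interval 0.23 to 0.99, adjusted p = 0.175). Trim63 exceeded Fbxo32 by a mean ratio of 1.89 ± 0.37 in CON-pre, 2.67 ± 0.47 in HFD-pre, 3.19 ± 0.34 in CON-post and 3.39 ± 0.60 in HFD-post (SD, n = 4 each).

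The 2 low ligases moved less. Fbxo30, which BMP signalling is known to repress in denervated muscle, ranged from 1.86 to 3.85 FPKM over all libraries, with overlapping groups in every comparison. Its difference after exercise was 0.29 in CON (95% interval -0.02 to 0.60) and 0.04 in HFD (95% interval -0.26 to 0.35) on the log2 scale. Fbxo21 ranged from 2.25 to 4.53 FPKM. Its HFD-post libraries, at 3.61 to 4.53 FPKM, lay above the HFD-pre libraries, at 2.60 to 3.34 FPKM, and its averaged difference was 0.30 (SE 0.10, adjusted p = 0.093).

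Foxo1, the FoxO factor best known for restraining glucose use in muscle, measured 4.07, 3.89, 3.17 and 9.93 FPKM in CON-pre and 12.1, 8.26, 5.81 and 8.91 FPKM in CON-post. In HFD mice Foxo1 measured 5.19, 6.43, 7.62 and 4.51 FPKM before and 9.15, 8.92, 9.70 and 9.10 FPKM after exercise. The HFD groups separated, and the CON groups overlapped only through CON-pre replicate 4, which was above 3 of the 4 CON-post libraries. The log2 difference was 0.77 in CON (95% interval 0.21 to 1.33, adjusted p = 0.226) and 0.62 in HFD (95% interval 0.06 to 1.18, adjusted p = 0.365). Without CON-pre replicate 4 the CON difference was 1.10 with an adjusted p of 0.00632 in limma, the only call among 28 alternatives. Without 1 of the other libraries it was not called, and its lowest value was 0.60 (without CON-pre replicate 3) and its highest adjusted p 0.492 (without CON-pre replicate 1). The 4 HFD-post values were the tightest of any Foxo1 group, with an SD of 0.336 FPKM against 3.13 FPKM in CON-pre.

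Foxo3, which drives both ligase and autophagy genes, measured 2.66, 3.21, 2.43 and 3.57 FPKM in CON-pre and 5.06, 4.11, 3.23 and 3.81 FPKM in CON-post. Its HFD values were 2.58, 2.65, 3.37 and 2.70 FPKM before and 3.94, 4.12, 4.38 and 5.29 FPKM after exercise. All HFD-post libraries were above all HFD-pre libraries, and in CON the lowest post library fell among the pre libraries. The differences were 0.39 in CON (95% interval 0.11 to 0.67, adjusted p = 0.231) and 0.57 in HFD (95% interval 0.28 to 0.85, adjusted p = 0.0877) on the log2 scale. Foxo4 was the most abundant of the 3 factors and the steadiest of the 9 genes, from 34.0 to 47.7 FPKM. It made up 69.7 to 86.6% of the summed FPKM of Foxo1, Foxo3 and Foxo4, with a mean of 82.6% in CON-pre, 81.6% in HFD-pre, 76.6% in CON-post and 76.7% in HFD-post. Its own averaged difference after exercise was 0.17 (SE 0.06, adjusted p = 0.106).

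Mstn measured 22.8, 28.3, 20.1 and 27.9 FPKM in CON-pre and 26.1, 19.1, 17.8 and 26.1 FPKM in CON-post. In HFD mice Mstn was at 20.3, 16.5, 20.7 and 18.4 FPKM before and 23.1, 18.7, 30.7 and 20.0 FPKM after exercise. The groups overlapped within both diets, and the estimates pointed in opposite directions, -0.16 in CON (95% interval -0.50 to 0.18) and 0.26 in HFD (95% interval -0.08 to 0.60). The difference between them was 0.42 (95% interval -0.07 to 0.90, unadjusted p = 0.0856, adjusted p = 1.00 in limma). Murc ranged from 51.3 to 79.1 FPKM, its groups overlapped in every comparison, and its averaged difference after exercise was 0.09 (95% interval -0.09 to 0.26).

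**Figure D2:**
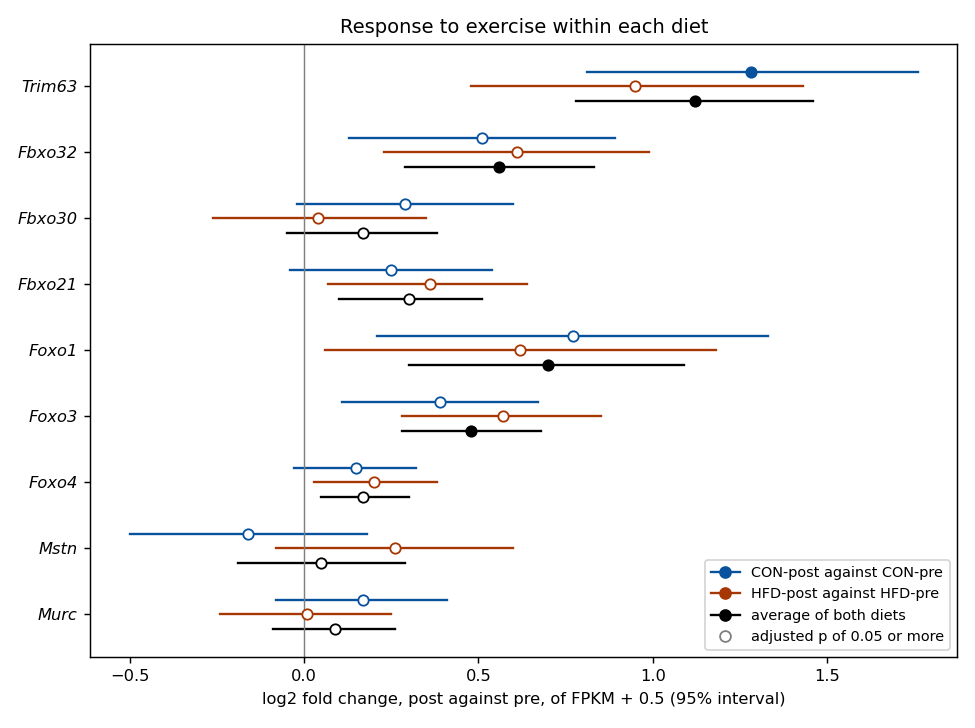
Log2 fold change of FPKM + 0.5 after exercise for the 9 genes, in CON mice (blue), in HFD mice (brown) and averaged over the diets (black), with 95% intervals. Filled points have an adjusted p under 0.05: Trim63 in CON, and Trim63, Fbxo32, Foxo1 and Foxo3 in the average. The intervals of the 2 diets overlap for every gene.

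Counted within each diet, CON gave 1 call of 9 (Trim63) and 4 of 9 higher at an unadjusted p under 0.05 (Trim63, Fbxo32, Foxo1 and Foxo3), against 6.13% of all genes. Within HFD limma called 0 of 9, where it called 0.489% of all genes higher, and 6 of 9 were higher at an unadjusted p under 0.05, against 8.50% of all genes. At an adjusted p under 0.1 in limma, 2 of 9 were higher in HFD (Trim63 and Foxo3), against 0.711% of all genes. In 6 of the 9 genes (Trim63, Fbxo32, Fbxo21, Foxo1, Foxo3 and Foxo4) every HFD-post library was above every HFD-pre library, against 4.72% of all genes. That 1 diet gave a call for Trim63 and the other did not is no measured difference between diets. The interaction of diet and exercise in limma called 0 of the 9 genes, and 0% of all genes, and 0 of the 9 had an unadjusted p under 0.05, against 3.16% of all genes. For Trim63 the interaction was -0.33 on the log2 scale with a 95% interval from -1.01 to 0.34.

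Between the diets none of the 9 genes was called in any comparison. Before exercise limma called 0 of 9 genes between HFD-pre and CON-pre, where 0.346% of all genes were called, and 2 of 9 were lower at an unadjusted p under 0.05, Fbxo32 and Mstn, against 5.76% of all genes. The mean of Fbxo32 was 69.5 ± 21.3 FPKM in CON-pre against 50.1 ± 8.98 FPKM in HFD-pre (SD, n = 4 each), a log2 difference of -0.44 (95% interval -0.82 to -0.06, unadjusted p = 0.0267, adjusted p = 0.51 in limma). The mean of Mstn was 24.8 ± 4.01 FPKM in CON-pre against 19.0 ± 1.94 FPKM in HFD-pre (SD, n = 4 each), a log2 difference of -0.37 (95% interval -0.71 to -0.03, unadjusted p = 0.0356, adjusted p = 0.551 in limma). For both genes the highest HFD-pre library lay above the lowest CON-pre library. The other 7 genes had log2 differences from -0.05 to 0.27.

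After exercise limma again called 0 of 9 genes between the diets, against 0.151% of all genes, and none of the 9 had an unadjusted p under 0.05, against 6.29% of all genes. Fbxo32 was the only gene of the 9 whose groups did not overlap, with the highest HFD-post library at 84.0 FPKM and the lowest CON-post library at 87.0 FPKM. Such a separation in the lower direction was seen in 1.28% of all genes. Averaged over the exercise states, HFD gave 0 calls of 9 in limma, against 0.959% of all genes. Only Fbxo32 was lower at an unadjusted p under 0.05, against 6.54% of all genes (log2 -0.39, SE 0.13, unadjusted p = 0.00738, adjusted p = 0.216). The averaged diet difference of Trim63 was -0.10 (95% interval -0.44 to 0.23), and the difference between these 2 genes was not tested.

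Beside the diet values, the fat-cell genes Lep and Cfd moved in opposite directions, with Lep higher by a log2 difference of 2.54 (adjusted p = 0.000243) and Cfd lower by a log2 difference of -1.77 (adjusted p = 0.000175) in limma, out of 10 adipocyte genes tested. These are averages over the exercise states, a comparison that called 0.959% of all genes. The summed level of the 10 adipocyte genes was 723 to 961 FPKM in CON-pre, 784 to 923 in HFD-pre, 703 to 997 in CON-post and 652 to 1245 FPKM in HFD-post. Of the 10 muscle fibre genes limma called 0 between the diets averaged over exercise states, and 6 were lower at an unadjusted p under 0.05, against the 6.54% of all genes (3 of 10 between HFD-pre and CON-pre). Their sum was 84270 to 93037 FPKM in CON-pre, 74922 to 81281 in HFD-pre, 75212 to 86509 in CON-post and 66756 to 80604 FPKM in HFD-post, so HFD-pre lay below CON-pre without overlap. None of 8 slow-fibre genes was called or had an unadjusted p under 0.05 in any comparison, and their sum was 212 to 726 FPKM in CON-pre, 198 to 525 in HFD-pre, 192 to 720 in CON-post and 194 to 760 FPKM in HFD-post. All 8 had a negative log2 difference in HFD-pre against CON-pre (median -0.54, range -0.74 to -0.29) and averaged over the exercise states (median -0.44, against -0.02 over all genes). With exercise averaged over the diets all 8 had a positive log2 difference (median 0.16, range 0.05 to 0.20, against 0.01 over all genes). The 9 macrophage genes also had negative averaged diet differences, none of them called (median -0.26, range -0.40 to -0.05), and their sum was 108 to 179 FPKM in CON-pre, 99.4 to 127 in HFD-pre, 82.8 to 231 in CON-post and 77.2 to 164 FPKM in HFD-post. Beside the exercise values, 1 of 8 endothelial genes was called higher in limma, against 2.95% of all genes (Pecam1, log2 0.36, adjusted p = 0.00141). The endothelial sum was 60.1 to 75.1 FPKM in CON-pre, 65.6 to 79.9 in HFD-pre, 66.6 to 89.9 in CON-post and 70.5 to 79.9 FPKM in HFD-post, with no gene of the list at 0. Of the 10 muscle fibre genes 0 were called with exercise in limma, and 2 were lower at an unadjusted p under 0.05, against 6.80% of all genes. Of the 10 adipocyte genes 0 were called with exercise, and 2 were higher at an unadjusted p under 0.05, against 11.7% of all genes. Of the blood, macrophage, tendon and fibroblast and satellite cell lists (6, 9, 7 and 6 genes tested) limma called 0 with exercise and 0 at an unadjusted p under 0.05. The part of other cell types in the values of the 9 genes was not tested.

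The neighbours of the 9 genes in the pathway were then read from lists of genes, whose differences are given on the log2 scale. At an unadjusted p under 0.05, 11.7% of all genes were higher and 6.80% lower with exercise averaged over diets, and limma called 2.95% higher and 0.915% lower. The list counts with exercise are to be read beside these shares. Of 29 other ubiquitin ligases of muscle, 4 rose and 1 fell in the exercise comparison averaged over diets, against those 2.95% and 0.915%, with a median log2 difference of 0.01, the same as the 0.01 over all genes. Klhl40, a substrate adaptor that protects thin filament proteins, rose from 38.3 ± 0.84 to 91.4 ± 24.6 FPKM in CON and from 41.8 ± 7.80 to 72.4 ± 24.7 FPKM in HFD (SD, n = 4 each; averaged log2 0.97, adjusted p = 0.00117). Cblb, a ligase that restrains insulin receptor substrate signalling in unloaded muscle, rose by 0.56 (adjusted p = 0.0017). Nedd4l rose by 0.36 (adjusted p = 0.0202) and Fbxo31 by 0.31 (adjusted p = 0.00705). Trim55 (MuRF2), the closest relative of Trim63 on the list together with Trim54, fell by 0.22 (adjusted p = 0.0493), a call that held in 9 of 27 alternatives. Within CON, Klhl40 (1.20, adjusted p = 0.00672) and Cblb (0.72, adjusted p = 0.00681) were called higher in limma, against 0.968% of all genes. Within HFD limma called 0 of 29, where 0.489% of all genes were called higher. At an unadjusted p under 0.05, 5 were higher within HFD and 2 lower, against 8.50% and 3.22% of all genes. The interaction of diet and exercise called 0 of 29, and 0% of all genes.

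Of 22 genes known as FoxO or atrophy targets, 10 rose and 0 fell with exercise in limma, against 2.95% and 0.915% of all genes (2 were lower at an unadjusted p under 0.05), with a median log2 difference of 0.37 against 0.01 over all genes. Over the alternatives the number that rose ranged from 7 to 12. The 6 with the lowest p were Mt1 (1.46, adjusted p = 4.94e-05), Eif4ebp1 (0.75, adjusted p = 0.00087), Mt2 (1.76, adjusted p = 0.0017), Pdk4 (0.91, adjusted p = 0.002), Gabarapl1 (0.50, adjusted p = 0.00309) and Irs2 (0.62, adjusted p = 0.00815). Mt1 and Mt2 encode metallothioneins. Pdk4 turns muscle away from glucose oxidation, Gabarapl1 builds autophagosomes, and Irs2 and Eif4ebp1 belong to insulin signalling and translation. Pdk4 was at 207 ± 66.5 FPKM in CON-pre and 518 ± 36.3 FPKM in CON-post, and at 316 ± 61.1 FPKM in HFD-pre and 433 ± 108 FPKM in HFD-post (SD, n = 4 each). Within CON, 4 of 22 rose (Pdk4, Mt1, Gabarapl1 and Gadd45a), and within HFD 3 of 22 (Mt1, Eif4ebp1 and Mt2), against 0.968% and 0.489% of all genes. The CON count ranged from 2 to 6 over the alternatives, with 2 when only the 2 groups compared were fitted, and Gadd45a was called in 7 of 28. The HFD count ranged from 1 to 4, with 1 without HFD-post replicate 2 or 3 and without HFD-pre replicate 1 or 2. The interaction of diet and exercise in limma called 0 of the 22, and 0% of all genes. Calls for different genes in the 2 diets are therefore no measured difference between diets. At an unadjusted p under 0.05 the interaction was positive for 0 and negative for 2 of the 22, against 2.11% and 1.05% of all genes. Between the diets, averaged over the exercise states, limma called 1 of the 22 higher in HFD and 1 lower. Of all genes, 0.959% were called in either direction. Cat, encoding catalase, was higher by 0.50 (adjusted p = 0.00267), and Mt1 was lower by a log2 difference of -0.70 (adjusted p = 0.0492). At an unadjusted p under 0.05, 2 were higher and 5 lower, against 3.89% and 6.54% of all genes. The Cat call held in 27 of 27 alternatives and the Mt1 call in 11 of 27.

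Among 19 regulators of FoxO, only Ppargc1a was called with exercise (over the alternatives 1 to 2 rose and 0 to 1 fell, with 2 and 1 without CON-pre replicate 4). Ppargc1a, the coactivator PGC-1α that is known to restrain Foxo3, rose from 6.60 ± 0.36 to 28.3 ± 8.0 FPKM in CON and from 4.69 ± 0.34 to 22.3 ± 5.4 FPKM in HFD (SD, n = 4 each; averaged log2 2.04, adjusted p = 2.63e-07). Among 15 genes of the myostatin and activin pathway limma called 0 with exercise, with 2 higher and 2 lower at an unadjusted p under 0.05. In this list 1 gene fell after quantile normalization, after scaling to the upper quartile or by the median of ratios, and without HFD-pre replicate 4. The lowest p was that of Gdf11, the ligand closest to myostatin (-0.38, adjusted p = 0.0844). Averaged over the exercise states, Wfikkn2, which encodes a secreted binder of myostatin, was lower in HFD (-0.37, adjusted p = 0.0432), with means of 3.75 ± 0.42 in CON-pre, 2.80 ± 0.39 in HFD-pre, 3.64 ± 0.58 in CON-post and 2.67 ± 0.33 FPKM in HFD-post (SD, n = 4 each). This call was the only 1 among the 15 genes in limma, against 0.959% of all genes, and it held in 11 of 27 alternatives. At an unadjusted p under 0.05, 3 of the 15 were lower in HFD, against 6.54% of all genes.

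Of 15 genes that glucocorticoids are known to induce, 2 rose with exercise, Fkbp5 (1.00, adjusted p = 0.018) and Mt2, and 8 were higher at an unadjusted p under 0.05, with a median of 0.36 (4 rose without CON-pre replicate 4). The list shares Mt2, Klf15 and Ddit4 with the target list. Of 21 ubiquitin and conjugating enzyme genes 0 rose and 1 fell, Ube2d1 (-0.23, adjusted p = 0.0335, called in 16 of 27 alternatives), with 6 higher at an unadjusted p under 0.05. In that list 1 gene rose with array weights, with median-of-ratios scaling and without CON-post replicate 3 or HFD-post replicate 1. None of the 42 proteasome subunits and activators was called in any comparison by limma with all libraries, and 1 was with exercise without CON-pre replicate 4 or without HFD-pre replicate 4. With exercise 8 of the 42 were higher and 0 lower at an unadjusted p under 0.05, against 11.7% and 6.80% of all genes. These shares also apply to the other unadjusted counts in this paragraph. The lowest p in the proteasome list was that of the core subunit Psmb4 (0.34, adjusted p = 0.0937). Of 10 other caveola genes, the cavin Ptrf rose (0.37, adjusted p = 0.033, called in 15 of 27 alternatives), with 4 higher at an unadjusted p under 0.05, beside the 0.09 of Murc. The plot of the lists by gene sets these medians against the 9 genes.

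**Figure D3:**
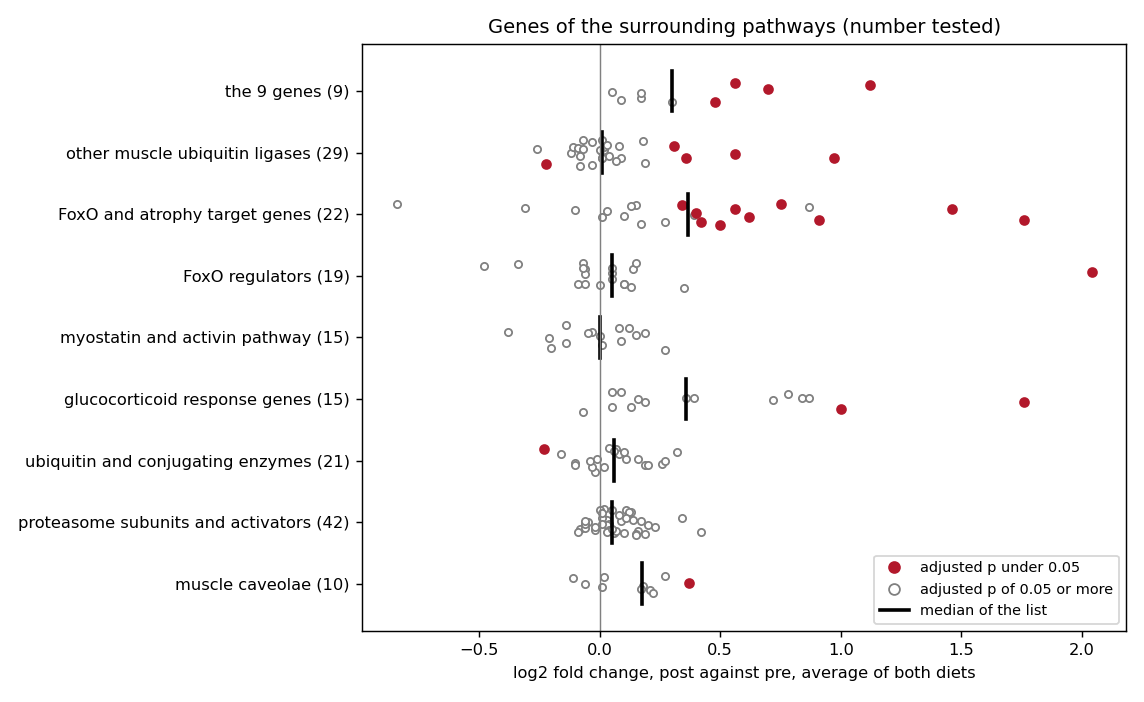
Log2 fold change after exercise, averaged over the diets, of the 9 genes and of each gene tested in 8 lists of neighbouring pathways (number tested in brackets, vertical spread within a row for legibility only). Red points have an adjusted p under 0.05 and the black bar is the median of the list. The target list has 10 red points and a median of 0.37, whereas the proteasome list has none and lies close to 0.

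Across the 16 libraries the members of the group moved together to different degrees. These are descriptions, since the points share 4 groups and 1 table. Trim63 and Fbxo32 had a Pearson r of 0.81, which was 0.73 after the group means had been removed. Foxo1 and Foxo3 had an r of 0.84 (0.74 after removal), and Fbxo21 and Foxo4 0.85 (0.71 after removal). Trim63 and Foxo3 had an r of 0.72 that fell to 0.19 after removal of the group means, so these 2 genes shared the group differences more than the spread within groups. Mstn and Murc had an r with Trim63 of 0.08 and 0.28.

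**Figure D4:**
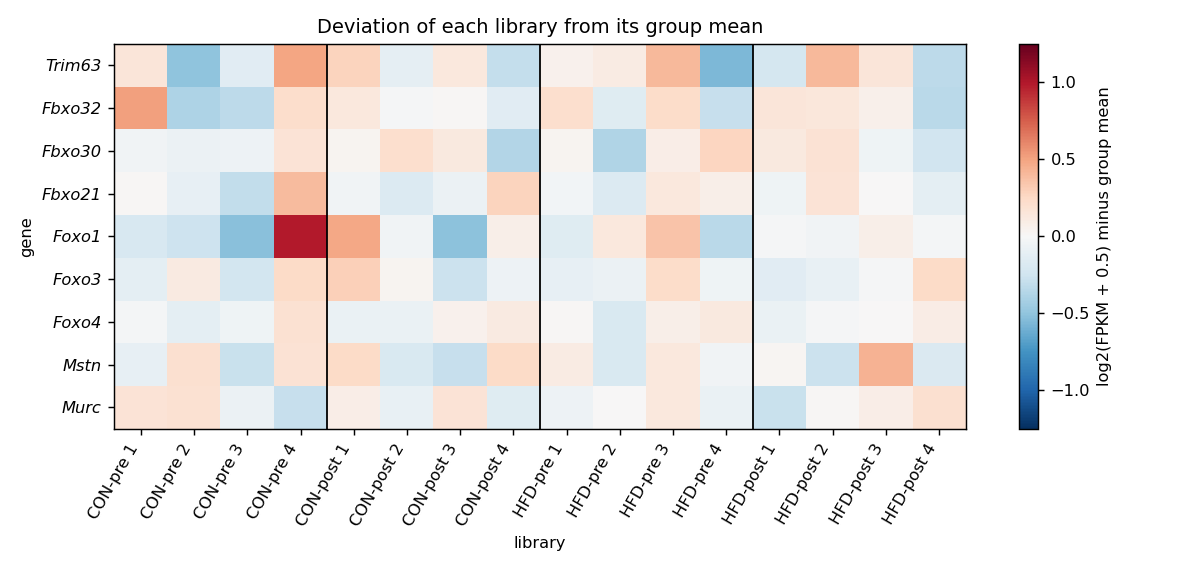
Log2(FPKM + 0.5) of each library minus the mean of its group (colour), for the 9 genes (rows) in the 16 libraries (columns, groups separated by lines). CON-pre replicate 4 is the highest of its group for 6 of the 9 genes and HFD-pre replicate 3 for 7.

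By the same measure over all genes tested, the pattern most like that of Trim63 was shown by Fam134b (r = 0.936), a receptor for autophagy of the endoplasmic reticulum. It was followed by Npc1 (0.925), Cblb (0.909), Rbm20 (0.908) and the amino acid transporter Slc38a2 (0.900). For Fbxo32 the closest were Klhl38 (0.867), Rbm20 (0.839), Zxdc (0.815), Nedd4l (0.811) and Trim63 (0.809). Foxo1 was followed most closely by the lipid droplet gene Plin4 (0.931), then Odf3l2 (0.920), Gucd1 (0.917), Ccrn4l (0.907) and Map3k6 (0.906). The genes most like Mstn were Ppp1r3a (0.820), which encodes a glycogen-targeting phosphatase subunit, Cd27 (0.805), Tbx15 (0.801), Usp25 (0.793) and Cdkn2aipnl (0.777). These r values are over 16 libraries, and with the group means removed they were 0.54 (Slc38a2) to 0.76 (Npc1) for the 5 genes named with Trim63, and 0.42 (Zxdc) to 0.76 (Klhl38) for those named with Fbxo32. They were 0.84 to 0.87 for those named with Foxo1 and 0.72 to 0.84 for those named with Mstn.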

How the data were processed

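Quadriceps RNA of 16 mice was sequenced by the authors as stranded polyA libraries, trimmed, checked with FastQC, aligned with TopHat (mm9 is named) and quantified with Cufflinks, whose versions are not given in the sources used here. The authors deposited FPKM per gene and library, not counts. Their methods give 1 rounded number of reads per sample for all samples, so the number of reads behind a value is unknown. Of 24487 entries, 27 with a number or date for a name were left out (0.0771% of FPKM) and 260 repeated symbols were summed. In 16 genes whose mean reached 5 FPKM, some library was at 0. All sample columns were used.

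The filter kept genes averaging at least 0.5 FPKM across libraries. They were tested with limma 3.58.1 (R 4.3.3) on log2(FPKM + 0.5), 1 trended fit for the 4 groups. P-values were adjusted by Benjamini-Hochberg over the 11256 genes and called under 0.05. Libraries are 1 muscle each, and nothing in the labels ties them across groups. The code was checked on simulated data. The 9 genes and all gene lists were chosen with earlier results of these data known. All 9 are counted in every comparison, called or not, but not every estimate is given. From each list the genes called are named (at most the 6 with the lowest p) or the gene with the lowest p, and for likeness the 5 highest Pearson r. Marker genes are named where called. Promoters are from RefSeq GRCm38.p6, since the loci the study lists lie at that build's positions. Alternatives were pseudocounts, filters, scalings, variance models, a replicate block, pairwise fits, a threshold of 0.1 and leaving out each library.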

Additional observations from a re-analysis of the deposited data

Results flagged for a closer look

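Each of the 9 genes was examined in each group of 4 for a library far from the others, 36 groups in all, by the gap to the nearest other library divided by the range of the group (above Dixon's 95% critical value). Chance alone flags about 1 in 20 groups, and 3 were found. Foxo1 was at 9.93 FPKM in CON-pre replicate 4, where the other 3 libraries lay between 3.17 and 4.07 FPKM (0.867 of the range). Fbxo30 was at 2.95 FPKM in the same library, against 2.44 to 2.49 FPKM in the others (0.889). Foxo3 was at 3.37 FPKM in HFD-pre replicate 3, against 2.58 to 2.70 FPKM in the others (0.852).

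CON-pre replicate 4 was the highest of its group for 6 of the 9 genes (Trim63, Fbxo30, Fbxo21, Foxo1, Foxo3 and Foxo4), and HFD-pre replicate 3 for 7 of 9. These libraries were also the highest of their groups for 10 and 11 of the 15 glucocorticoid response genes. In CON-pre replicate 4 Fkbp5 was at 22.7 FPKM, against 7.68 to 16.1 FPKM in the other CON-pre libraries. The same library was the lowest of its group for 2 of the 15, Mt2 (9.33 FPKM against 21.7 to 33.1 FPKM) and Zbtb16 (17.9 FPKM against 18.4 to 27.5 FPKM). The depth of the 2 libraries, relative to CON-pre replicate 1, was 1.102 and 0.824. The part of any of these in the values of the 9 genes was not tested.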

How the results depend on the processing

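Over 63 results for the 9 genes (9 genes in 7 comparisons), alternatives left the direction and the side of the threshold unchanged in 1731 cases, lost a call in 19, added 1 in 7 and turned the direction in 43, all of the last among uncalled differences. Trim63 was called in CON in 28 of 28 alternatives (adjusted p 0.00287 to 0.0297), and averaged over the diets Trim63, Fbxo32 and Foxo3 were called in 27 of 27. All 19 lost calls were of averaged Foxo1, which was called in 8 of 27. The averaged count of 4 genes ranged from 3 to 6, with 6 without CON-pre replicate 4 (Fbxo21 and Foxo4 added). In CON the count of 1 ranged from 1 to 2 over the libraries left out, with 2 (Foxo1 added) without CON-pre replicate 4. At an adjusted p under 0.1 the HFD count was 2 (Trim63 and Foxo3), where 0.711% of all genes were higher. Without CON-pre replicate 4, an alternative added after seeing the data for the lists, the target genes that rose numbered 12 in place of 10 averaged over the diets and 6 in place of 4 in CON, and the glucocorticoid genes 4 in place of 2 and 3 in place of 0. Without that library the other list counts moved by at most 1.

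The cause of the turned directions was not tested. HFD-pre against CON-pre, Fbxo30 was 0.014 with upper-quartile scaling, 0.028 with median-of-ratios scaling, 0.050 with quantile normalization and 0.006 with array weights, and with array weights Foxo3 was 0.012 and Murc -0.002. HFD-post against HFD-pre, Fbxo30 was -0.008 with upper-quartile scaling and -0.001 with quantile normalization, and Murc was -0.056, -0.031 and -0.066 under upper-quartile scaling, the median of ratios and quantile normalization in that order. With 1 library left out, the range for HFD-pre against CON-pre was -0.104 to 0.250 for Trim63, -0.095 to 0.121 for Fbxo30, -0.062 to 0.173 for Fbxo21, -0.132 to 0.026 for Foxo3 and -0.085 to 0.074 for Murc. For HFD-post against HFD-pre it was -0.081 to 0.135 for Fbxo30 and -0.059 to 0.102 for Murc, and for HFD-post against CON-post -0.060 to 0.272 for Foxo1 and -0.095 to 0.138 for Mstn. For the interaction it was -0.072 to 0.228 for Fbxo32, -0.026 to 0.209 for Fbxo21, -0.483 to 0.019 for Foxo1 and -0.005 to 0.10 for Foxo4. It was -0.020 to 0.10 for Mstn averaged over the diets and -0.011 to 0.084 for Foxo3 in the averaged diet comparison.

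The replicate numbers do not mark shared animals, and libraries with the same number did not deviate together (r from -0.22 to 0.213 over 24 pairs, median -0.0218, against -0.221 to 0.212 over 72 other pairs). With the replicate number as a block, the averaged count was 3 (Trim63, Fbxo32 and Foxo3) and the CON count 1, and 0 of 9 were called in the other 5 comparisons. FPKM do not give the number of reads behind a value, so small differences of the low genes Fbxo30, Fbxo21 and Foxo3 are limited to an extent that these values do not give.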
